A study of Homo sapiens with 2 samples.

Results

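The kinesin motor family was examined among RNAs pulled down with LRPPRC from lysates of A549 cells. Members were the rows named KIF with a number and an optional letter, or KIFC1, KIFC2 or KIFC3, and 40 of the 16802 named genes in the table fell under this rule. The rule takes members by name only, but it was chosen with earlier results of these data known. KIFAP3, whose name starts alike, encodes a partner of kinesins and was not counted as a member, and KIF2B and KIF19 were not analysed here.

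A549 is a lung adenocarcinoma cell line with an epithelial origin, used here as wild type and without treatment. Lysates were incubated with 2 μg of anti-LRPPRC antibody, and the RNA held on protein A/G beads was sequenced as 2 RIP libraries of 1 condition, called replicate 1 and replicate 2. The series description calls the replicates technical whereas the paper calls them biological, so the spread between them may be technical only. Values are FPKM, the fragments of a gene scaled to the length of its transcript and to the mapped fragments of its library, so an FPKM is a level in the precipitate and was not divided by the level in the cell. Libraries of input RNA or of IgG controls were not analysed here, and a higher level in the precipitate cannot be told apart from a more abundant mRNA in the cell. The summed FPKM was 196627 for replicate 1 and 194839 for replicate 2, and the files hold no sequencing depth. Keratin KRT8, a marker of A549 as an epithelial line, had a mean of 337 FPKM, KRT18 had 51.1 and KRT19 had 12.1. Enzymes listed as markers of A549 had means of 76.4 (ALDH1A1), 32.2 (AKR1B10), 27.6 (NQO1) and 7.66 FPKM (AKR1C1). The epithelial markers EPCAM and CDH1 had only 0.430 and 1.33. The endothelial marker PECAM1 had 0.192. The fibroblast markers COL1A1, at 0.696, and COL1A2, at 1.36, were both above EPCAM.

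Kinesins are motor proteins that hydrolyze ATP to walk along microtubules or to take their ends apart. One group builds and moves the mitotic spindle and completes cytokinesis, and its genes are transcribed mainly in G2 and mitosis. Another group carries vesicles, mitochondria, endosomes and other cargo through the cytoplasm in every phase of the cell cycle, and several of its members serve mainly neurons. A smaller group works in cilia and in Hedgehog signaling. What the family shares is the motor domain, in which the Walker A motif, or P-loop, binds the phosphates of ATP.

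The coding sequence of this motif was read from the canonical transcripts of GENCODE 44 on GRCh38 to show what the members have in common and where the motor lies. The motif was searched as a glycine, any residue, a threonine or serine, 2 further residues, a glycine, a lysine, and a serine or threonine. It was found in 38 of the 40 members. KIF26A and KIF26B were the members with no match to this pattern, although both had a match when the third residue was left free. The lines give the gene with its location on GRCh38, and the capitals mark the 8 codons of the motif with 1 codon on each side in lower case.
KIF20A, chr5:138178719-138187723, plus strand: tatGGAGTCACTAACTCAGGGAAAACCcac
KIF23, chr15:69414246-69448427, plus strand: tatGGTGTGACGGGAAGTGGAAAAACTcac
KIF11, chr10:92574105-92655395, plus strand: tatGGCCAAACTGGCACTGGAAAAACTttt
KIF2C, chr1:44739818-44767767, plus strand: tatGGCCAGACAGGAAGTGGCAAGACAcat
KIFC1, chr6:33391823-33409896, plus strand: tatGGCCAGACAGGCAGTGGCAAGACCttc
KIF5B, chr10:32009015-32056425, minus strand: tatGGACAAACATCCTCTGGGAAGACAcac
KIF4A, chrX:70290104-70420886, plus strand: tatGGGCAGACTGGCTCTGGAAAAACCtat
KIF4B, chr5:155013755-155018141, plus strand: tatGGGCAGACTGGCTCTGGAAAAACCtat

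Among 36 members whose codons were compared, 35 sequences of the motif were distinct, and the pair with the same codons was KIF4A and KIF4B. The motif lay early in the coding sequence of 33 members, between 5.26% and 27.1% of its codons. It lay further in for KIF2A, at codon 313 of 744, and KIF2C, at codon 348 of 725, the kinesins that depolymerize microtubules with a motor in the middle of the protein. In the minus-end-directed KIFC1 it was at codon 410 of 673 and in KIFC3 at codon 528 of 826, at the C-terminal side. A motor at the C-terminal side thus occurs in a kinesin of the spindle and in a kinesin of transport.

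**Figure D1:**
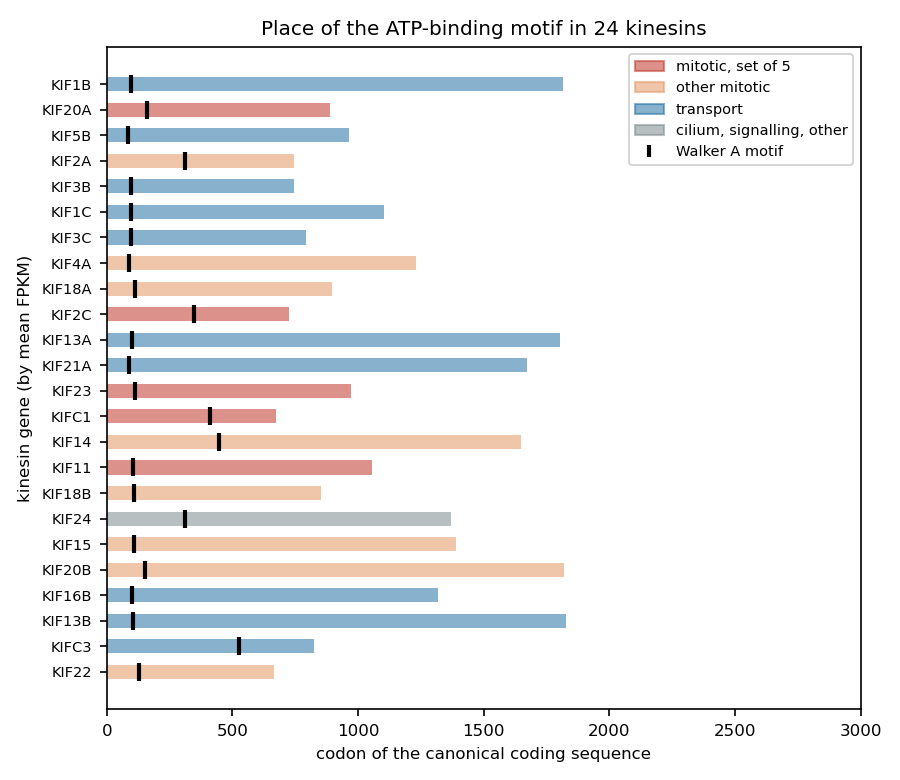
Coding sequences of the 24 kinesins with a mean above 5 FPKM, ordered by level (y axis), drawn to their length in codons (x axis), with the color giving the class. The black mark is the Walker A motif. As a share of the codons it lies furthest along in KIF2A, KIF2C, KIFC1 and KIFC3, and within the first 27.1% in the other genes drawn. By codon number it also lies far from the start in KIF14, at 447, and in KIF24, at 313.

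Kinesin mRNAs were recovered in LRPPRC RIP over a wide range of levels. Of the 40 members, 31 (77.5%) had a mean of at least 1 FPKM, where 63.3% of all named genes did, and 24 (60.0%) had a mean above 5, where 36.9% did. A mean above FPKM 30, the threshold the study used for LRPPRC-binding RNAs, was reached by 10 members (25.0%), where 8.45% of all named genes reached it. The study also gave RIP signals relative to input, which were not used here. Among genes with a mean of at least 1, the shares above 30 were 10 of 31 for kinesins and 13.3% for all named genes. The median of these 31 kinesins was 17.8 FPKM and that of all named genes with such a mean was 6.60. The family accounted for 0.334% of all FPKM of replicate 1 and 0.337% of that of replicate 2.

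The 5 mitotic kinesins set against transport kinesins were all well detected. KIF20A, which brings the chromosomal passenger complex to the central spindle, had values of 56.2 (replicate 1) and 55.6 FPKM (replicate 2). KIF2C, a microtubule depolymerase of the kinetochore, had 32.0 and 32.9 FPKM in the same libraries. These 2 of the 5 were above FPKM 30 in both libraries, and 8.45% of all named genes had a mean above 30. KIF20A ranked 609 among all named genes by mean.

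KIF23, which forms centralspindlin with RACGAP1 and is needed for cytokinesis, had 24.8 FPKM in each library. KIFC1, a minus-end-directed motor that focuses spindle poles, had 19.8 and 17.8 FPKM in replicates 1 and 2. KIF11, which slides spindle microtubules apart to separate the poles, had 17.6 and 18.0 FPKM. These 3 mRNAs lay below FPKM 30 in both libraries, and the values of KIFC1 and KIF11 overlapped. KIF20A was 3.19 times KIF11 in replicate 1 and 3.09 times in replicate 2, a difference far larger than that between the libraries.

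Other kinesins of mitosis and cytokinesis spanned a wider range. KIF2A, a depolymerase of spindle poles that also works in neurons, had 44.4 and 47.6 FPKM. KIF4A, a chromokinesin that limits the length of the central spindle, had 37.8 and 38.7. KIF18A, which dampens the movements of chromosomes at the metaphase plate, had 33.7 and 31.6. These were the 3 of 9 such kinesins above FPKM 30, and none of the 3 fell below it in either library. Of all named genes, 8.45% had a mean above 30.

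KIF14, which acts in cytokinesis with citron kinase, had 19.0 and 18.0 FPKM. KIF18B, which shortens astral microtubules, had 13.4 and 13.5, and KIF15, which can stand in for KIF11, had 9.98 and 11.0. KIF20B had 7.75 and 7.86 FPKM and the chromokinesin KIF22 had 6.40 and 5.78. All of these but KIF22 were above the median of named genes with a mean of at least 1, which was 6.62 FPKM in replicate 1 and 6.56 in replicate 2.

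KIF4B, an intronless copy of KIF4A, was the lowest of the class, at 0.150 and 0.147 FPKM. Its transcript aligned to that of KIF4A with 95.2% identity over 4345 bases, the only pair of kinesin transcripts at 95% or more, so reads of this pair may have been assigned to either gene and both values are uncertain. Canonical exons of KIF2A also overlap those of DIMT1 on the opposite strand by 1906 bases and those of an unnamed gene on the same strand by 331 bases, and those of KIF20A overlap CDC23 by 74 bases. The libraries were stranded, but the sources used here do not say whether quantification used the strand.

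Transport kinesins fell into a high and a low set. KIF1B, which carries mitochondria and synaptic vesicle precursors, had 55.5 and 56.8 FPKM and was the highest kinesin by mean. KIF5B, the heavy chain of conventional kinesin found in most tissues, had 47.0 and 47.7. KIF3B, a subunit of the kinesin-2 motor of cilia and vesicles, had 43.9 and 43.6. These levels were close to those of KIF20A and KIF2A, and the values of KIF1B and KIF20A overlapped.

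KIF1C, a motor of dense core vesicles, had 40.1 and 39.0 FPKM, and KIF3C had 39.1 and 39.3. KIF13A, which moves recycling endosomes, had 28.1 and 31.0 FPKM and so passed FPKM 30 in replicate 2 only. KIF21A, which restrains microtubule growth at the cell cortex, had 27.6 and 26.2. Of the 17 transport kinesins, 5 (29.4%) had a mean above 30, where 8.45% of all named genes did. Another 2 lay between 26.9 and 29.6.

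The next transport kinesin by mean was far lower. KIF16B, a motor of early endosomes, had 7.44 and 7.61 FPKM, KIF13B had 7.49 and 6.39, and KIFC3, a minus-end-directed motor of the Golgi and of cell junctions, had 6.43 and 6.36. The values of KIF13B overlapped those of both others. KIF3A had a mean of 3.23 FPKM, KIF5C of 2.92, KIF21B of 1.39 and KIF5A of 1.08. Below 1 FPKM were KIFC2, at 0.612, KIF17, at 0.594, and KIF1A, the axonal vesicle motor, at 0.176. KIF1A, KIF5A, KIF5C, KIF17 and KIF21B, which are best known from neurons, all had means under 3 FPKM. KIF3C, which is also best known from neurons, was in the high set, as was KIF1B, which carries synaptic vesicle precursors. These genes were named with their values known, so no pattern of neuronal kinesins can be read from them.

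Paralogs of transport kinesins differed in level to an extent that varied by subfamily. KIF5B contributed 92.3% (replicate 1) and 92.1% (replicate 2) of the FPKM of KIF5A, KIF5B and KIF5C together. KIF21A made up 95.5% and 94.7% of the sum with KIF21B, and KIF13A 78.9% and 82.9% of the sum with KIF13B. In the KIF1 group, the largest by FPKM, KIF1B was 1.38 and 1.46 times KIF1C. In the KIF3 group the leading pair was also closer, with KIF3B at 1.12 times KIF3C in replicate 1 and 1.11 times in replicate 2. KIF3B protein pairs with KIF3A in heterotrimeric kinesin-2. In precipitated mRNA, KIF3B was 13.2 and 13.9 times KIF3A on the FPKM scale. KIFAP3, the third subunit of that motor, had 2.03 FPKM in each library, and KIF3A was 1.64 and 1.54 times that level.

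Kinesins of cilia, signaling and less known function had a median of 0.491 FPKM, against 2.47 over all named genes. KIF24, a centriolar kinesin that restrains the formation of cilia, stood apart with 12.6 and 11.5 FPKM. KIF7, a regulator of Hedgehog signaling, had a mean of 2.66, KIF9 of 2.62 and KIF27 of 1.39. The other 5, KIF26A, KIF25, KIF26B, KIF12 and KIF6, had means of at most 0.491, and KIF6 was listed at 0.00329 in replicate 1 and at 0 in replicate 2. None of these 9 members had a mean above 30, a count near the 8.45% of all named genes.

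The mitotic set of 5 and the transport kinesins had overlapping levels. Among members with a mean of at least 1, the 5 mitotic kinesins had a median of 24.8 FPKM in replicate 1 and 24.8 in replicate 2, whereas 14 transport kinesins had 17.5 and 16.9. On the log2(FPKM + 1) scale the difference of the medians was 0.73 in replicate 1 and 0.76 in replicate 2, mitotic minus transport. Of 70 pairs of a mitotic with a transport kinesin, the mitotic one was higher in both libraries in 43 and lower in both in 26, and in the remaining pair the order differed between the libraries.

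The 5 mitotic means ran from 17.8 to 55.9 FPKM, within which 6 of the 14 transport kinesins also lay, with KIF1B above them and the other 7 below. No transport mean lay between 7.52 and 26.9 FPKM, so the transport median of 17.2 falls into a gap that holds no gene of the class. The difference of the medians depended on the lists and the filter. It was 0.36 with all mitotic kinesins and 1.70 with no filter on low values. Without KIFC2, KIFC3, KIF21A and KIF21B among the transport kinesins it was -0.24, and with FPKM multiplied by transcript length it was -0.17, both with mitotic kinesins lower. No test was made, because genes are not replicates of a class and the classes were chosen with earlier results of these data known.

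**Figure D2:**
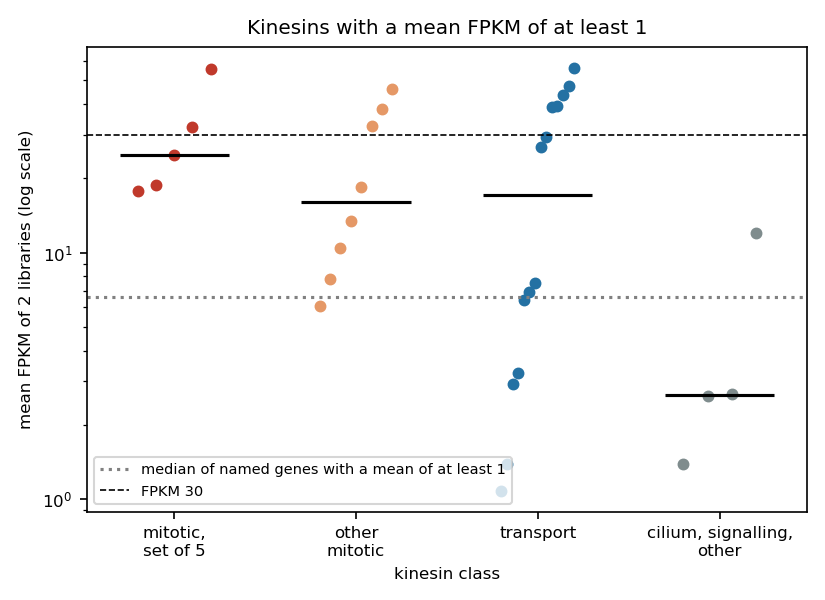
Mean FPKM of the 2 libraries on a log scale (y axis) for kinesins with a mean of at least 1, by class (x axis). Each point is a gene, black bars are class medians, the dashed line is FPKM 30 and the dotted line is the median of named genes with a mean of at least 1, 6.60 FPKM. The mitotic set of 5 lies between 17.8 and 55.9 FPKM, and the transport class splits into a high set of 7 and a low set of 7.

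By summed FPKM the 5 mitotic kinesins held 22.9% of the kinesin FPKM in replicate 1 and 22.7% in replicate 2, and with the other mitotic kinesins 49.2% in each. With FPKM multiplied by transcript length the share of the 5 was 13.0%. Transport kinesins held 47.7% in replicate 1 and 47.8% in replicate 2. KIF2A, counted as mitotic here, also serves neurons, so the line between the classes is not sharp.

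Transcripts of the mitotic set were mostly shorter than those of transport kinesins. The canonical transcripts of the 5 mitotic kinesins were between 2391 and 5016 bases with a median of 3095, whereas those of the 14 transport kinesins were between 3359 and 10855 bases with a median of 6214. FPKM divides by length, and the product of FPKM and length in kb approximates the share of fragments. On this product KIF20A, second of all kinesins by FPKM, ranked 8, whereas KIF1B, with a 3′ UTR of 5016 bases, ranked first and KIF2A, with one of 5456 bases, ranked 2. The median product was 90.9 for mitotic and 117 for transport kinesins in replicate 1, and 90.8 for mitotic and 111 for transport kinesins in replicate 2. The lengths come from a later annotation than that of the authors, so the product is only an approximation. Over the 31 kinesins with a mean of at least 1, Spearman's rho of length and FPKM was 0.0040, a description across genes that share 2 libraries.

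Promoters of the members were searched for the motifs of cell cycle genes, because mitotic genes are known to carry a CCAAT box, bound by NF-Y, and a cell cycle genes homology region (CHR), bound by the DREAM and MuvB complexes. RefSeq promoters of GRCh38.p14, from 250 bases before to 50 after the start, were matched for 33 of the 40 members. CCAAT and the CHR core TTTGAA were searched on both strands, and no kinesin promoter had the 2 motifs overlapping. The lines show the CHR core in capitals with 12 bases on each side, for 3 of the 5 mitotic kinesins, for 3 further mitotic kinesins and for the transport kinesin that had it. TTCAAA is the core read on the other strand.
KIF23, chr15:69414282-69414311, plus strand: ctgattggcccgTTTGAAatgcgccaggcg
KIF11, chr10:92593090-92593119, plus strand: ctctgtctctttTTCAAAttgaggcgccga
KIFC1, chr6:33391815-33391844, plus strand: tggccgttggaaTTCAAAagtggcgggtgt
KIF18A, chr11:28108149-28108178, minus strand: aagtggcttgggTTTGAAtattgtggttga
KIF4A, chrX:70290058-70290087, plus strand: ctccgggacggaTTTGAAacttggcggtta
KIF4B, chr5:155013746-155013775, plus strand: ctctgggagggaTTTGAAacttggcggtta
KIF5B, chr10:32056548-32056577, minus strand: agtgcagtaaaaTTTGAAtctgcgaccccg

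The CHR core was present in 10 of 14 mitotic kinesin promoters (71.4%), in 1 of 12 transport promoters (8.33%) and in 0 of 7 promoters of the cilium and signaling class, and 12.1% of 15840 protein-coding promoters held it. CCAAT was present in 11 of the 14 (78.6%), 3 of the 12 (25.0%) and 3 of the 7 (42.9%), where 36.4% of all promoters held it. Both motifs were in 9 of the 14 mitotic promoters (64.3%) and in 5.03% of all promoters. KIF4B, one of these 9, is a copy of KIF4A, and its sequence around the core resembles that of KIF4A.

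The core of mitotic kinesins began between position -55 and position 31, counted from the RefSeq start with negative positions before it, and that of KIF5B began at position -140. Of the mitotic kinesins, KIF20A, KIF2C, KIF2A and KIF22 had no TTTGAA in this window, and KIF20A had CCAAT at 2 places. The highest mitotic mRNA in the precipitate, KIF20A, was thus without these letters in the window. Members with the core had a median of 18.5 FPKM and those without 6.81. Of the 11 with it, 10 were mitotic, so core and class cannot be told apart in these medians. Mitotic kinesins with the core had means between 0.148 (KIF4B) and 38.2 FPKM (KIF4A). Those without it had 55.9 (KIF20A), 46.0 (KIF2A), 32.4 (KIF2C) and 6.09 (KIF22). A mean above 30 was reached by 7 of the 22 members without the core and 3 of the 11 with it, against 8.45% of all named genes. A match is a description of these letters, and no binding was measured here.

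Listed partners of the mitotic kinesins and other genes of mitosis were all detected in the precipitate. Of 18 listed genes of the spindle and of cytokinesis, 8 had a mean above 30 FPKM, where 8.45% of all named genes did, and their median was 27.8, against 2.47 over all named genes. BIRC5, the survivin subunit of the chromosomal passenger complex that KIF20A relocates, had 114 and 117 FPKM, RACGAP1, which binds KIF23, had 97.9 and 98.6, and TOP2A, which untangles chromosomes, had 73.6 and 73.2. KIF23 was at 0.253 times RACGAP1 in replicate 1 and 0.252 times in replicate 2. Their proteins form 1 complex, but these ratios are of precipitated mRNA, and protein was not measured here. CENPE, the kinesin of kinetochores whose name the member rule does not take in, is counted among the 18 and had 10.9 and 11.2 FPKM.

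Light chains and adaptors of transport kinesins had levels near those of all named genes. Of 14 listed genes, 13 had a row, and their median was 2.77 FPKM, against 2.47 over all named genes. None had a mean above 30, which with 8.45% of all named genes above it is near the background. The mitochondrial adaptor TRAK2 had 22.7 and 21.3 FPKM, and PLEKHM2, which links kinesin to lysosomes, had 19.8 and 21.0. KLC1, the light chain that pairs with KIF5B, had 5.34 and 6.16 FPKM, against 47.0 and 47.7 for KIF5B, and KLC2, KLC3 and KLC4 had means under 1. These lists were described by counts and medians and were not tested.

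Kinesin levels were close between the libraries. Over the 31 members with a mean of at least 1, the median absolute log2 ratio of the libraries was 0.04 on the log2(FPKM + 1) scale, and over all named genes with such a mean it was 0.06. The libraries differed by more than 1.1 times in 5 of the 31 kinesins, where 25.0% of named genes did. KIF13B had the largest ratio of these, 1.17, and KIF23 the smallest coefficient of variation, 0.0176%. Of the 30 neighboring pairs in the order of the 31 levels, 10 had overlapping values and cannot be ordered, among them KIF1B with KIF20A, KIF5B with KIF2A, KIF1C with KIF3C, KIF18A with KIF2C, and KIFC1 with KIF14. Replicate 1 was higher in 15 of the 31 and replicate 2 in 16.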

How the data were processed

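RNA precipitated with anti-LRPPRC antibody from A549 cells was measured in 2 libraries of 1 group. Per the study's methods and the submitters' processing notes, the authors trimmed with cutadapt 1.18, mapped with HISAT2 2.1.0 on GRCh38 and used StringTie 1.3.3b with Ensembl release 101 for quantification. The deposited values are FPKM per gene and library, for 21262 rows of which 4460 were added by assembly and left out here. FPKM carries no depth, so no interval was computed, and the SD over 2 libraries is the only error.

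Means, ranks, medians and counts above FPKM 30 were computed from the deposited FPKM. Lengths, codons and gene locations were of GENCODE 44 canonical transcripts. Python 3.11.15, pandas 2.3.3, scipy 1.17.1, biopython 1.88 and blastn 2.17.0 were used. Members and lists were chosen with earlier results of these data known. Both libraries are given for the 5 mitotic kinesins and for members with a mean of at least 5 FPKM, other members are named with their mean, and the 3 highest genes of each partner list are named, except 1 that is not reported here; any further gene was picked with its values known. Alternatives were thresholds of 20 and 50, each library alone, other class lists, pseudocounts of 0.1 and 0.01, no filter, TPM scaling and multiplication by transcript length.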

Additional observations from a re-analysis of the deposited data

How the results depend on the processing

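With a threshold of 20 FPKM 13 kinesins passed and with 50 FPKM 2 passed, against 10 at 30 FPKM. It was also 10 with the threshold in both libraries, and between 10 and 11 with a single library, where KIF13A made the difference. Of the 16802 named genes, 2199 had a mean above 20, 1419 above 30 and 720 above 50. The difference of the mitotic and transport medians was 0.74 with the mean of the libraries and between 0.73 and 0.76 with a single library. It was 0.36 with all mitotic kinesins, 1.70 without a filter on low values, 0.80 with a pseudocount of 0.1 and 0.80 with 0.01, and 0.79 on the TPM scale. It changed sign to -0.24 without KIFC2, KIFC3, KIF21A and KIF21B, of which the filter on low values had already left out KIFC2. The transport median was then that of KIF13A, at 29.6 FPKM, above the mitotic median of 24.8. With FPKM multiplied by transcript length the difference was -0.17, and the cause of that change was not tested. The 5 mitotic kinesins held 22.8% of the kinesin FPKM, between 22.7% and 22.9% with a single library, 13.0% with FPKM multiplied by transcript length and 49.2% with all mitotic kinesins. The median absolute log2 ratio of the libraries was between 0.04 and 0.06. On the TPM scale the means of 24 kinesins took other values because the unit differs. No paired analysis was possible because both libraries belong to a single condition. Without a known depth, no precision can be given for low members such as KIF6 and KIF4B.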

Other observations

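Dynein, the motor that walks toward the opposite end of microtubules from most kinesins, was recovered with a few subunits at levels like those of the higher kinesins. Of 25 listed genes of dynein, dynactin and their regulators, 24 had a row. Of these, 23 had a mean of at least 1 FPKM, where 63.3% of all named genes did, and 5 had a mean above 30, where 8.45% did. The median of the 24 was 15.8 FPKM, against 2.47 over all named genes. DYNC1H1, the dynein heavy chain, had 60.0 and 60.2 FPKM in replicates 1 and 2, and ACTR1A, the actin-related filament protein of dynactin, had 52.5 and 52.1. DYNLRB1, a dynein light chain, had 51.6 and 46.7. The neuronal intermediate chain DYNC1I1 had 0.589 and 1.17, against 27.1 and 30.1 for DYNC1I2, the chain of most tissues. STARD9, a mitotic kinesin whose name does not start with KIF, had a mean of 3.05 FPKM.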
